A study of Mus musculus with 18 samples.

Results

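The genes described here are Hcn2, Hcn3 and Hcn4, which are 3 of the 4 mammalian genes for hyperpolarization-activated cyclic nucleotide-gated (HCN) channels, and Pex5l, which encodes their auxiliary subunit TRIP8b. They are 4 of the 37310 gene rows of the deposited count table and were taken from it by gene name. All 4 passed the filter on low counts that left 15433 genes to test. RNA had been sequenced from cultured mouse cortical neurons, either lacking Fmr1, which encodes the RNA-binding protein FMRP (Fmr1 KO), or wild type (WT). At 7 days in culture the neurons were given JQ1, an inhibitor of the acetyl-lysine-binding BET bromodomain proteins, or vehicle (DMSO) for 24 h. The 4 groups of 3 libraries were KO in JQ1, WT in JQ1, KO in DMSO and WT in DMSO. Another 6 samples labelled with the CDK inhibitor THZ1 were not analysed here. The sources used here give neither the JQ1 dose nor the mouse strain. The labels do not say whether the 3 libraries of a group came from separate cultures or animals. The p-values therefore measure the spread between these libraries, which may be technical where libraries share a source. In KO, replicate 3 differed from replicates 1 and 2 in sex-linked RNA in both treatments, as given below.

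HCN channels open when a neuron is hyperpolarized and pass the mixed sodium and potassium current called Ih, which helps to set the resting potential, the input resistance and rhythmic firing. Binding of cAMP to a domain in the C-terminal tail makes opening easier, strongly in HCN2 and HCN4 and weakly or not at all in HCN3. TRIP8b, a brain relative of the peroxisomal import receptor PEX5, binds the C-terminal tail of HCN subunits, steers their traffic to the membrane and weakens their response to cAMP. In adult cortex HCN channels are known for their density in the apical dendrites of pyramidal neurons, and HCN4 is best known as the pacemaker channel of the heart and of thalamic relay neurons.

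Because the channel genes are related, the longest stretches of transcript that each pair has in common are shown, since only a read lying wholly within such a stretch could not be assigned to one gene. All letters are in capitals because all are shared.
Hcn2 and Hcn3: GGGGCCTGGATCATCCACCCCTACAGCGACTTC
Hcn2 and Hcn4: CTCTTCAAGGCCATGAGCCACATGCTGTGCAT
Hcn3 and Hcn4: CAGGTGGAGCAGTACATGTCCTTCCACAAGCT
These stretches are 33, 32 and 32 bases long, against reads of 75 bases. In the GENCODE M21 transcripts, 0 of the 3190 windows of 75 bases in Hcn2 and 0 of the 6044 in Hcn4 occurred in any other gene. Hcn3 shared 637 of 4184 windows with Pklr, a pyruvate kinase gene whose exons overlap those of Hcn3 over 711 bases on the other strand. Pklr had 5 to 56 counts in a library and Hcn3 had 1445 to 8570. Pex5l shared 127 of 9273 windows with the gene model Gm37459 and overlapped 4930419G24Rik over 24 bases. In a library 4930419G24Rik had 0 to 2 counts, against 657 to 4707 for Pex5l. Gm37459, whose exons overlap those of Pex5l over 340 bases on the other strand, was not among the genes counted, so its reads are unknown. Whether the libraries keep strand is not stated in the sources at hand, so reads of these overlapping genes cannot be told apart.

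The promoters of Hcn2 and Hcn4 are shown because Hcn2 was the channel gene that was called higher in JQ1 in WT neurons for the same library size, though not when libraries were scaled to spike-in RNA, and Hcn4 was not. RefSeq's table (GRCm38.p6) held both, and had no entry for Hcn3 or Pex5l. Each sequence runs from 250 bases before to 50 bases after the annotated start, on the plus strand, with each match to GGGCGG in capitals, all of them as its reverse complement.
Hcn2, chr10:79716384-79716683: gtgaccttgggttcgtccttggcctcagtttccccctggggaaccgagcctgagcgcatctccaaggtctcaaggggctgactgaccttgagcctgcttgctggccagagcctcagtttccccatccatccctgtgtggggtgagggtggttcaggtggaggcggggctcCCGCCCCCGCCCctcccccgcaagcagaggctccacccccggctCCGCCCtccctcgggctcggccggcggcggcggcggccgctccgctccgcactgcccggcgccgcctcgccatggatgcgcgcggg
Hcn4, chr9:58822699-58822998: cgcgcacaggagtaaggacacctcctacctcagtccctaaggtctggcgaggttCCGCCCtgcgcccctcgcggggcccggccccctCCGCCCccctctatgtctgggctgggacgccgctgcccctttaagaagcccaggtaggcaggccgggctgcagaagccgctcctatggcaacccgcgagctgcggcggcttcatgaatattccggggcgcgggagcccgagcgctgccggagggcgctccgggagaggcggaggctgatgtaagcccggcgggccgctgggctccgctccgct
Both are rich in G and C, at 72.3% in Hcn2 and 71.7% in Hcn4, against a median of 52.7% over the 32851 promoters of the table. They hold 26 CpG dinucleotides in Hcn2 and 31 in Hcn4, against a median of 7. GGGCGG, searched as exact letters on both strands, occurred 3 times in Hcn2 and 2 times in Hcn4 and is present in 35.7% of all promoters. The letters TATAAA were in neither window and occur in 13.6% of all promoters. Neither window held CCAAT, which 37.4% of promoters hold. The same was so for the E-box letters CACGTG, which 7.15% of promoters hold, and for the cAMP response element letters TGACGTCA, which 1.79% hold. None of these letter strings contains another.

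Library totals ran from 21643592 to 134110850 gene counts, which gave the 4 genes 657 to 10518 counts in a library and a counting error of 0.975% to 3.90%. In checks of the labels, Fmr1 was at 21.5 to 34.6 CPM (counts per 1000000 counts of the TMM-scaled library) in the 6 KO libraries, against 119 to 154 CPM in the 6 WT libraries. Its log2 change was -2.31 ± 0.11 (SE) in DMSO (adjusted p = 9.2e-08, edgeR quasi-likelihood test). The 2 KO replicate 3 libraries stood apart in sex-linked RNA, with Xist at 4.29 and 4.34 CPM, against 230.5 CPM or more in the other 10, so results are also given without them. The excitatory neuron markers summed to 1269 to 1439 CPM in every library, none of its 10 genes being at 0. Microglial markers summed to 6.01 to 9.81 CPM and endothelial and mural markers to 1.73 to 5.71 CPM. Oligodendrocyte lineage markers summed to 146 to 213 CPM. None of the markers in these lists was at 0 in all 12 libraries.

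All 4 genes were expressed in every library, and their order per kilobase of exon was the same in each group. Hcn2 (ENSMUSG00000020331, chromosome 10) stood highest, at 27.2 ± 1.81 CPM per kb in KO in JQ1, 28.1 ± 2.69 in WT in JQ1, 24.9 ± 0.31 in KO in DMSO and 23.3 ± 1.62 in WT in DMSO (SD, n = 3 each). Hcn3 (ENSMUSG00000028051, chromosome 3) followed at 17.9 ± 0.89 CPM per kb in KO in JQ1, 16.3 ± 0.41 in WT in JQ1, 19.1 ± 0.13 in KO in DMSO and 16.5 ± 1.10 in WT in DMSO. Hcn4 (ENSMUSG00000032338, chromosome 9) was at 8.27 ± 0.88 CPM per kb in KO in JQ1, 7.36 ± 0.65 in WT in JQ1, 8.87 ± 0.31 in KO in DMSO and 7.71 ± 0.096 in WT in DMSO. The libraries of neighbouring genes in this order did not overlap within any group. Pex5l (ENSMUSG00000027674, chromosome 3) was lowest, at 3.79 ± 0.34 CPM per kb in KO in JQ1, 3.78 ± 0.31 in WT in JQ1, 3.59 ± 0.25 in KO in DMSO and 3.87 ± 0.16 in WT in DMSO. Lengths are unions of the annotated exons, 3.195, 4.154, 6.118 and 8.846 kb for Hcn2, Hcn3, Hcn4 and Pex5l, so unused exons lower a gene's value. Depending on strand and counting mode, reads in the 711 bases that Hcn3 shares with Pklr may have been counted for neither gene. That would lower the value of Hcn3 too, by an amount not known here. Of the sum of the 3 channel genes per kb, Hcn2 made up 50.9% ± 0.86 in KO in JQ1, 54.2% ± 2.82 in WT in JQ1, 47.2% ± 0.24 in KO in DMSO and 49.1% ± 0.85 in WT in DMSO.

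**Figure D1:**
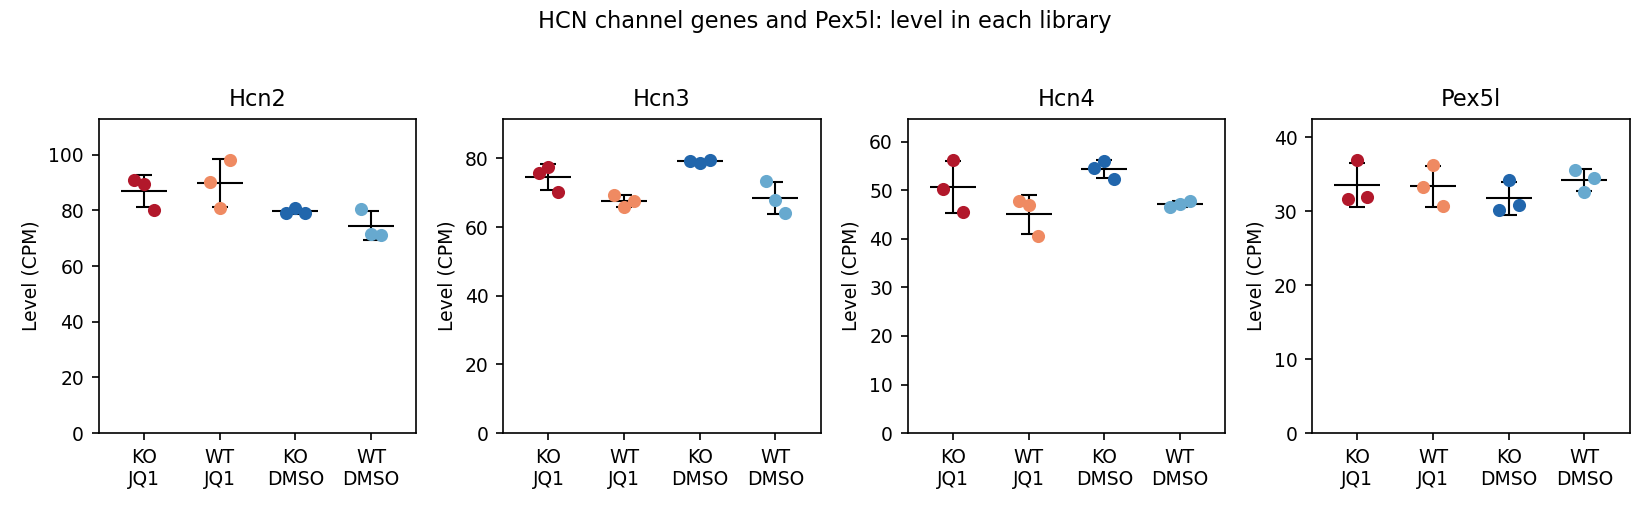
Level of each gene in CPM (vertical axes, each from 0) in the 12 libraries, by group, with points for libraries and bars for the mean and SD of 3. Hcn3 in KO in DMSO lies at 78.5 to 79.5 CPM, above all 3 WT libraries in DMSO at 64.2 to 73.3 CPM, and Hcn2 in WT in JQ1 lies at 80.9 to 98.1 CPM, above WT in DMSO at 71.3 to 80.4 CPM. CPM is scaled by TMM, and both differences turn negative with ERCC scaling.

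In DMSO, Fmr1 KO neurons had more Hcn3 RNA than WT neurons for the same library size, by 1.16-fold, a direction that scaling to spike-in RNA turned round, as given after the values. Hcn4 had a log2 change of similar size without passing the threshold (an adjusted p under 0.05, a call), and Hcn2 and Pex5l overlapped between genotypes. Hcn3, whose channels respond least to cAMP, was at 79.4, 78.5 and 79.5 CPM in KO in DMSO, against 73.3, 67.8 and 64.2 CPM in WT in DMSO. All 3 KO libraries were above all 3 WT libraries, and the KO libraries were closer to each other. The log2 change was 0.21 ± 0.052 (SE), with a 95% interval of 0.099 to 0.32 and an adjusted p of 0.0170 (edgeR quasi-likelihood test, Benjamini-Hochberg over 15433 genes). The call was lost without WT replicate 2 (adjusted p = 0.0612) or WT replicate 3 (adjusted p = 0.0508), and held without both KO replicate 3 libraries at 0.21 (adjusted p = 0.0194).

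Hcn4, the cAMP-sensitive channel with the slowest opening, was at 54.5, 56.1 and 52.3 CPM in KO in DMSO, against 46.5, 47.2 and 47.7 CPM in WT in DMSO. The groups did not overlap, and the WT libraries lay within a narrow range. Its log2 change of 0.20 ± 0.073 (SE, 95% interval 0.048 to 0.36) had an adjusted p of 0.0727. It passed the threshold without both KO replicate 3 libraries, at 0.23 (adjusted p = 0.0354), and when the 2 DMSO groups were fitted by themselves, at 0.22 (adjusted p = 0.0100). In the authors' deposited table of KO over WT, made with DESeq2, Hcn3 had a log2 change of 0.21 (adjusted p = 0.00297) and Hcn4 one of 0.21 (adjusted p = 0.00306).

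Hcn2, the most abundant of the genes, was at 79.0, 80.7 and 79.1 CPM in KO in DMSO, against 80.4, 71.6 and 71.3 CPM in WT in DMSO. WT replicate 1 lay among the KO libraries, and the log2 change of 0.097 ± 0.070 (SE, 95% interval -0.052 to 0.25) had an adjusted p of 0.370. Pex5l, the gene of the auxiliary subunit, was at 30.2, 34.2 and 30.8 CPM in KO in DMSO, against 35.5, 32.7 and 34.5 CPM in WT in DMSO. These groups overlapped too, with a log2 change of -0.11 ± 0.076 (SE, 95% interval -0.27 to 0.055) and an adjusted p of 0.360. So 1 of the 4 genes passed the threshold in this comparison, against 15% of all tested genes (7.21% higher and 7.76% lower in KO). The libraries of the genotypes did not overlap for 2 of the 4, against 37.6% of all tested genes. The median absolute log2 change was 0.156 over the 4 genes and 0.132 over all tested genes.

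These directions are relative to the bulk of the transcriptome. With libraries scaled to the ERCC spike-in RNAs instead, the median log2 change of all tested genes in KO over WT in DMSO was -0.82, and Hcn2, Hcn3 and Hcn4 changed sign, to -0.72, -0.61 and -0.60. Pex5l was at -0.90 (adjusted p = 0.0126), and it and Hcn2 (adjusted p = 0.0306) were then called lower in KO. So were 11990 of the 15433 tested genes, with 4 called higher. Set against that median, the changes were 0.11 for Hcn2, 0.21 for Hcn3, 0.23 for Hcn4 and -0.072 for Pex5l. ERCC reads were 0.168% to 0.348% of gene and ERCC counts together in KO in DMSO, against 0.118% to 0.173% in WT in DMSO. The sources used here do not give the amount added to each sample. In JQ1 over DMSO in WT the same scaling moved the median of all genes to -0.63 and Hcn2 to -0.39 (adjusted p = 0.260), which is 0.24 above that median.

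**Figure D2:**
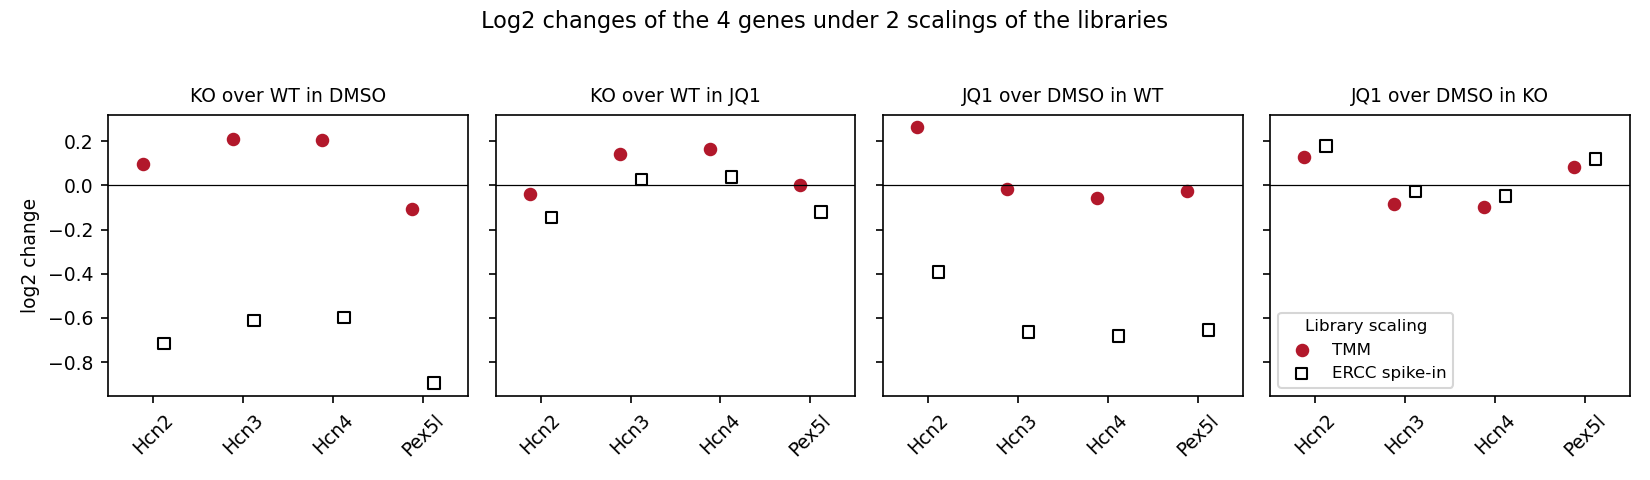
Log2 change of each gene (vertical axis) in 4 comparisons with libraries scaled by the trimmed mean of M values (TMM, filled circles) or to ERCC spike-ins (open squares). With ERCC scaling Hcn2, Hcn3 and Hcn4 lie at -0.72, -0.61 and -0.60 in KO over WT in DMSO, and Hcn2 at -0.39 in JQ1 over DMSO in WT, where TMM scaling puts them above 0.

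Some markers of other cell types were called between genotypes in DMSO, where 15% of all tested genes were called. Of 11 inhibitory neuron markers 7 rose and 0 fell in KO in DMSO (1 and 1 with ERCC scaling, 5 and 0 without both KO replicate 3 libraries), and their summed level was 694 to 767 CPM in KO in DMSO, against 501 to 623 CPM in WT in DMSO. The 9 astrocyte markers, 2 of which fell and 0 rose, summed to 530 to 716 CPM in KO in DMSO, against 759 to 917 CPM in WT in DMSO. The 9 progenitor markers, 2 of which fell and 0 rose (6 and 1 without both KO replicate 3 libraries), summed to 378 to 448 CPM in KO in DMSO, against 458 to 496 CPM in WT in DMSO. Of the 10 excitatory neuron markers, 3 rose and 3 fell. With ERCC scaling 7 excitatory, 9 astrocyte and 8 progenitor markers were lower in KO and 0 markers of these 3 lists were higher. No marker in these 4 lists was at 0, and their part in the changes of Hcn3 and Hcn4 was not tested. In RNA from a whole culture, fewer cells of a type and less RNA per cell cannot be told apart. In the remaining lists, 0 of 8 tested oligodendrocyte lineage, 0 of 5 microglial and 0 of 4 endothelial and mural markers were called with TMM scaling. With ERCC scaling 5, 3 and 3 of them were lower in KO in DMSO.

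In JQ1 the same contrast of genotypes gave 0 calls among the 4 genes with edgeR, against 8.97% of all tested genes (4.85% higher and 4.13% lower in KO). DESeq2 also called 0 of the 4, and 1871 genes in all. An unadjusted p under 0.05 was found for 2 of the 4 and for 26.3% of all tested genes. Hcn3 was at 75.8, 77.4 and 70.4 CPM in KO in JQ1, against 69.3, 65.9 and 67.5 CPM in WT in JQ1. The groups again did not overlap, and its log2 change was 0.14 ± 0.052 (SE, 95% interval 0.032 to 0.26, adjusted p = 0.0969). Hcn4 was at 50.1, 56.2 and 45.5 CPM in KO in JQ1, against 47.7, 46.9 and 40.5 CPM in WT in JQ1, and its log2 change was 0.16 ± 0.073 (SE, adjusted p = 0.167). KO replicate 3 lay among the WT libraries for Hcn4. Without both KO replicate 3 libraries Hcn3 and Hcn4 passed, at 0.18 (adjusted p = 0.0383) and 0.23 (adjusted p = 0.0397).

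Hcn2 was at 91.0, 89.4 and 80.3 CPM in KO in JQ1, against 90.1, 80.9 and 98.1 CPM in WT in JQ1, and its log2 change was -0.039 (95% interval -0.19 to 0.11, adjusted p = 0.773). Pex5l was at 31.7, 36.9 and 31.9 CPM in KO in JQ1, against 33.3, 36.2 and 30.7 CPM in WT in JQ1. For both genes the genotypes overlapped, and the 95% interval of the log2 change of Pex5l ran from -0.16 to 0.16. The libraries of the genotypes did not overlap for 1 of the 4 genes in JQ1, against 27% of all tested genes. Beside these values, 5 of the 11 inhibitory neuron markers rose and 0 fell in KO in JQ1 (1 and 0 with ERCC scaling, 3 and 0 without both KO replicate 3 libraries), with a summed level of 606 to 710 CPM, against 434 to 650 CPM in WT in JQ1. Of the 9 progenitor markers 4 fell and 0 rose (0 and 1 with ERCC scaling, 6 and 1 without both KO replicate 3 libraries), and 1 astrocyte marker of 9 fell (0 with ERCC scaling, 2 without those libraries). Of the 10 excitatory neuron markers 1 rose and 3 fell, with 0 each way under ERCC scaling. The progenitor markers had sums of 307 to 394 CPM in KO in JQ1, against 449 to 513 CPM in WT in JQ1. Their part in the levels of the 4 genes was not tested.

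**Figure D3:**
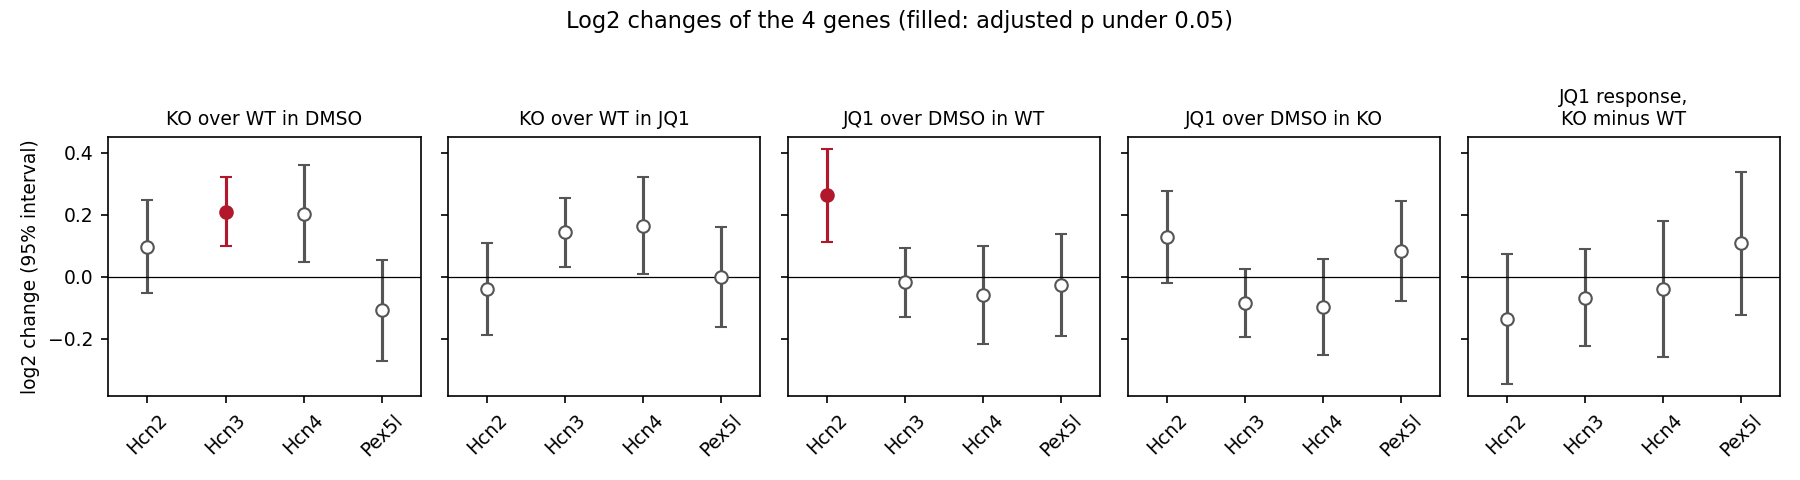
Log2 change of each gene with its 95% interval (vertical axis) in the 5 comparisons, with TMM scaling; filled points passed an adjusted p of 0.05. The filled points are Hcn3 in KO over WT in DMSO, at 0.21, and Hcn2 in JQ1 over DMSO in WT, at 0.26, both of which turn negative with ERCC scaling.

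JQ1 raised Hcn2 in WT neurons relative to the rest of the transcriptome, by 1.20-fold, though not with ERCC scaling, and left the other 3 genes without a call. Hcn2 was at 90.1, 80.9 and 98.1 CPM in WT in JQ1, against 80.4, 71.6 and 71.3 CPM in WT in DMSO. The groups did not overlap, although the lowest JQ1 library and the highest DMSO library were less than 1 CPM apart. The log2 change was 0.26 ± 0.070 (SE), with a 95% interval of 0.11 to 0.41 and an adjusted p of 0.00543. The call held whichever of the 12 libraries was left out, with log2 changes of 0.20 to 0.34 and adjusted p of 0.0012 to 0.0259, and was lost with ERCC scaling as given above. It was among the 55.1% of tested genes that were called in this comparison (25.9% higher and 29.3% lower in JQ1), and the groups did not overlap for 1 of the 4 genes, against 62.6% of all tested genes.

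The other 3 genes had no call for JQ1 in WT neurons. Hcn3 was at 69.3, 65.9 and 67.5 CPM in WT in JQ1, against 73.3, 67.8 and 64.2 CPM in WT in DMSO, with a log2 change of -0.018 (95% interval -0.13 to 0.094, adjusted p = 0.788). Hcn4 changed by -0.058 on the log2 scale (95% interval -0.22 to 0.10, adjusted p = 0.527) and Pex5l by -0.026 (95% interval -0.19 to 0.14, adjusted p = 0.797). The JQ1 and DMSO libraries of each of these 3 genes overlapped. The median absolute log2 change over the 4 genes was 0.042, against 0.259 over all tested genes.

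Glial markers were also called for JQ1 beside these values, where 55.1% of all tested genes were called in WT. In WT in JQ1, 6 of the 9 astrocyte markers fell and 0 rose, and they summed to 532 to 721 CPM, against 759 to 917 CPM in WT in DMSO. Of the 8 tested oligodendrocyte lineage markers 3 fell and 1 rose, and 3 of the 5 tested microglial and 3 of the 4 tested endothelial and mural markers fell. The neuronal lists were called in both directions, with 2 higher and 3 lower of the 10 excitatory markers and 1 higher and 2 lower of the 11 inhibitory markers. Of the 9 progenitor markers 1 rose and 1 fell. With ERCC scaling 0 markers of these lists were higher, and 9 astrocyte, 4 excitatory and 5 inhibitory markers were lower. Their part in the change of Hcn2 was not tested.

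In KO neurons 0 of the 4 genes were called for JQ1 against DMSO with edgeR, against 57.1% of all tested genes (27.7% higher and 29.4% lower in JQ1). DESeq2 called 0 of the 4 and 8516 genes in all, and an unadjusted p under 0.05 was found for 0 of the 4 and for 61.5% of all tested genes. Hcn2 was at 91.0, 89.4 and 80.3 CPM in KO in JQ1, against 79.0, 80.7 and 79.1 CPM in KO in DMSO. JQ1 replicate 3 lay among the DMSO libraries while the other 2 lay above all of them, and the log2 change was 0.13 ± 0.069 (SE, 95% interval -0.021 to 0.28, adjusted p = 0.130). Without KO in JQ1 replicate 3 it was 0.18 (adjusted p = 0.0465). Libraries of the same replicate number deviated together in this comparison, and Hcn2 was higher in JQ1 in 3 of 3 such pairs, with an adjusted p of 0.130 when the number was fitted as a block. That block gave each number a shift shared by KO and WT libraries, so it was not a test of pairs within KO. Hcn3 was at 75.8, 77.4 and 70.4 CPM in KO in JQ1, against 79.4, 78.5 and 79.5 CPM in KO in DMSO. All 3 JQ1 libraries were below all 3 DMSO libraries, yet the log2 change of -0.085 ± 0.052 (SE) did not pass (adjusted p = 0.173). Such a separation was seen for 1 of the 4 genes and for 60.7% of all tested genes.

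Hcn4 was at 50.1, 56.2 and 45.5 CPM in KO in JQ1, against 54.5, 56.1 and 52.3 CPM in KO in DMSO, with a log2 change of -0.097 (95% interval -0.25 to 0.057, adjusted p = 0.266). The highest JQ1 library was level with the highest DMSO library, and without that JQ1 library, replicate 2, the change was -0.18 (adjusted p = 0.0399). Pex5l changed by 0.082 on the log2 scale (95% interval -0.080 to 0.24, adjusted p = 0.370), with overlapping groups. By replicate number Pex5l was higher in JQ1 in 3 of 3 pairs (adjusted p = 0.317 with the block), Hcn3 lower in 3 of 3 (adjusted p = 0.136) and Hcn4 lower in 2 of 3 (adjusted p = 0.157).

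Whether JQ1 acted differently in KO and WT neurons was tested as the difference of the responses, KO minus WT. For Hcn2 it was -0.14 on the log2 scale, with a 95% interval of -0.35 to 0.075. It was -0.067 for Hcn3 (95% interval -0.22 to 0.091), -0.039 for Hcn4 (95% interval -0.26 to 0.18) and 0.11 for Pex5l (95% interval -0.12 to 0.34). The call of Hcn2 in WT and its absence in KO are therefore not shown to differ. In this test 0 of the 4 genes and 0% of all tested genes passed with edgeR, and 0 passed with DESeq2. An unadjusted p under 0.05 was found for 0 of the 4 and for 355 genes in all (2.3%), a share below that threshold itself. The test did not pair libraries of the same replicate number within a genotype.

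Ratios of the counts of 2 channel genes within a library do not depend on how libraries are scaled. The log2 ratio of Hcn3 to Hcn2 was -0.26, -0.21 and -0.19 in KO in JQ1, -0.38, -0.30 and -0.54 in WT in JQ1, 0.0066, -0.040 and 0.0080 in KO in DMSO, and -0.13, -0.079 and -0.15 in WT in DMSO. No pair of the 4 groups overlapped. The mean was higher in KO than in WT by 0.11 in DMSO and by 0.18 in JQ1, and it was lower in JQ1 than in DMSO by a log2 difference of -0.28 in WT and -0.21 in KO. These are descriptions of the same counts and carry no test of their own. Hcn3 was called in KO over WT in DMSO and Hcn2 in JQ1 over DMSO in WT, so this ratio is not independent of those calls. Libraries of the compared groups did not overlap for 27% to 62.6% of all tested genes, depending on the comparison. The share for ratios of other gene pairs was not computed, for this ratio or for those below.

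The ratio of Hcn4 to Hcn2 was -0.86, -0.67 and -0.82 in KO in JQ1, against -0.54, -0.53 and -0.60 in KO in DMSO, without overlap. In WT it was -0.92, -0.79 and -1.28 in JQ1, against -0.79, -0.60 and -0.58 in DMSO, and these groups overlapped at 1 library each. Hcn4 to Hcn3 stayed between -0.74 and -0.43 in all 12 libraries, and its groups overlapped in every comparison. In JQ1 the means of both ratios to Hcn2 were lower than in DMSO in each genotype.

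**Figure D4:**
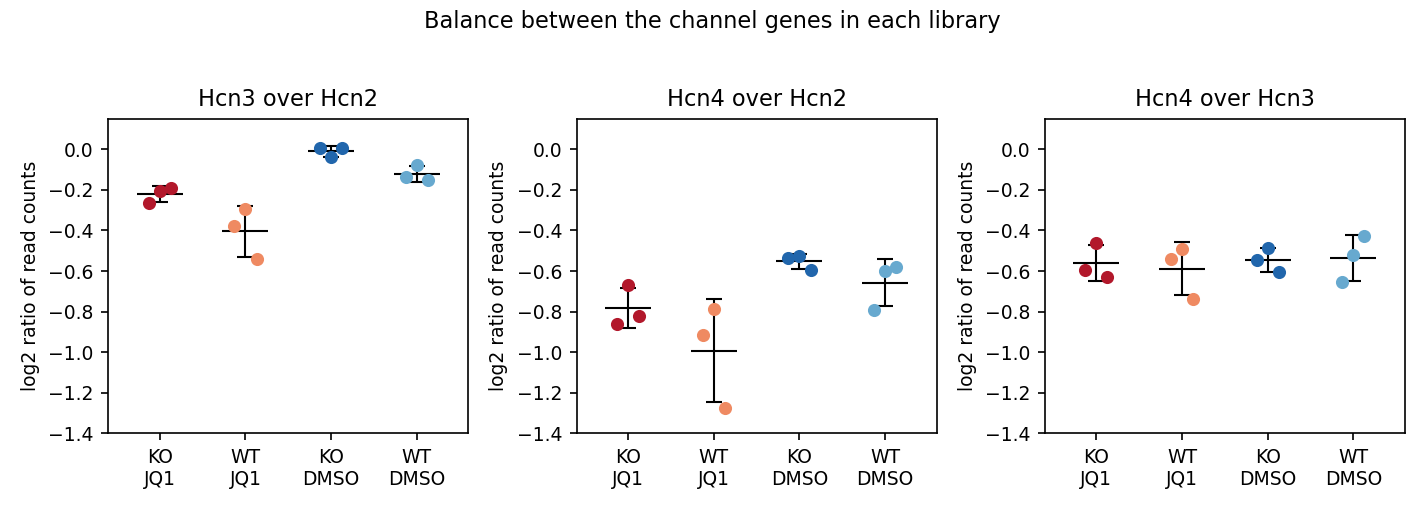
Log2 ratio of read counts of 2 channel genes in the same library (vertical axes), by group, with points for libraries and bars for the mean and SD of 3. Hcn3 over Hcn2 runs from -0.54 to -0.19 in the 6 JQ1 libraries and from -0.15 to 0.0080 in the 6 DMSO libraries, while Hcn4 over Hcn3 lies between -0.74 and -0.43 throughout.

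Over the 12 libraries the log2 CPM of Hcn3 and Hcn4 had a Pearson r of 0.767, and the other 5 pairs of the 4 genes ran from -0.22 to 0.179. These are descriptions over libraries that share genotype and treatment. By highest r, the genes most like Hcn2 were Prr7 (0.972), Fam108a (0.969) and Ccdc92 (0.968). Those most like Hcn3 were Abhd14a (0.960), Pigt (0.957) and Ankrd13b (0.951), and those most like Hcn4 were Slc36a1 (0.952), Klf13 (0.949) and Zc3h7b (0.946). Pex5l had no gene as close: Clock, the circadian transcription factor gene, was at 0.880, the small-conductance potassium channel gene Kcnn3 at 0.822 and Uggt2 at 0.794.

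Gene lists around the channels are described by their counts of calls, beside the shares of all tested genes given above. Of all tested genes, 15% were called between genotypes in DMSO and 8.97% in JQ1. For JQ1 against DMSO the shares were 55.1% in WT and 57.1% in KO. With ERCC scaling, 11990 of the 15433 tested genes were lower in KO in DMSO. Of 13 genes for other proteins that bind or traffic HCN channels, 9 could be tested, and 0 were called between genotypes in either treatment with edgeR. In each treatment 1 had an unadjusted p under 0.05, DESeq2 called 0 in DMSO and 1 lower in JQ1, and without both KO replicate 3 libraries 1 was higher and 1 lower in DMSO and 2 were higher and 1 lower in JQ1. With ERCC scaling 8 were lower in KO in DMSO. JQ1 raised 2 and lowered 3 in WT, and raised 2 and lowered 3 in KO, or with ERCC scaling raised 0 in either and lowered 4 in WT and 0 in KO. Apba2, a presynaptic and trafficking adaptor, changed by -0.25 on the log2 scale in WT (adjusted p = 0.0015). Kctd3, whose protein binds HCN3, changed by 0.13 in WT (adjusted p = 0.0184), and Vapa, an endoplasmic reticulum tether, by 0.26 in KO (adjusted p = 0.00238).

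The phosphodiesterases that break down cAMP were mostly lower in JQ1. Of 14 tested genes of 15 listed, JQ1 lowered 11 and raised 0 in WT, and lowered 11 and raised 2 in KO. With ERCC scaling the counts were 12 lower and 0 higher in WT, and 2 lower and 0 higher in KO. The median log2 change was -0.47 in each genotype, against -0.0043 in WT and 0.0014 in KO over all tested genes. Pde4b, a cAMP-specific enzyme, averaged 37.4 CPM in WT in JQ1 and 64.0 CPM in WT in DMSO, a log2 change of -0.77 ± 0.050 (SE, adjusted p = 3.42e-08), and changed by -0.66 in KO (adjusted p = 1.07e-07). Pde1a, a calcium and calmodulin-stimulated enzyme, averaged 33.4 CPM in WT in JQ1 and 68.5 CPM in WT in DMSO, and changed by -1.03 in WT (adjusted p = 1.3e-07) and by -0.97 in KO (adjusted p = 2.06e-07). Between genotypes in DMSO, 1 phosphodiesterase gene was higher in KO (Pde4a, at 0.19, adjusted p = 0.0132) and 3 were lower, Pde1c the most clearly, at -0.57 (adjusted p = 0.00943). With ERCC scaling 0 were higher and 12 lower. Beside the JQ1 counts of this list and the others, 6 of 9 astrocyte markers fell in WT in JQ1 and 5 in KO in JQ1, and 3 of the 5 tested microglial markers fell in each genotype. The part of these cells' RNA in the counts was not tested.

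Adenylyl cyclases, which make cAMP, were called in both directions in JQ1. Of 8 tested genes of 10 listed, JQ1 raised 1 and lowered 3 in WT, and raised 1 and lowered 4 in KO. Of all tested genes, 55.1% were called in WT and 57.1% in KO. The cyclase gene Adcy9 changed the other way from the rest of the called genes, by 0.53 in WT (adjusted p = 0.00101), while ERCC scaling gave 0 higher in either genotype, 4 lower in WT and 1 lower in KO. Adcy3 changed by -0.37 in WT in JQ1 (adjusted p = 6.45e-05) and was the only cyclase called between genotypes in DMSO, at 0.18 (adjusted p = 0.0412), where ERCC scaling gave 0 higher and 6 lower in KO. In JQ1 0 were called between genotypes by edgeR or DESeq2, and 2 had an unadjusted p under 0.05. Without both KO replicate 3 libraries 3 cyclases were higher in KO in DMSO and 2 in KO in JQ1.

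Among 11 genes for cAMP effectors, JQ1 raised 4 and lowered 4 in WT, and raised 4 and lowered 5 in KO, or raised 0 in either and lowered 5 in WT and 1 in KO with ERCC scaling. Between genotypes 2 were higher and 1 was lower in KO in DMSO, and 2 were higher and 0 lower in KO in JQ1. Rapgef3, for the cAMP-activated exchange factor EPAC1, was lower in WT in JQ1 than in WT in DMSO by a log2 change of -1.54 (adjusted p = 2.54e-07), and changed by -1.60 in KO (adjusted p = 1.58e-07). Prkaca, for a catalytic subunit of protein kinase A, rose in KO over WT by 0.25 in DMSO (adjusted p = 0.00138) and by 0.23 in JQ1 (adjusted p = 0.00284). Prkacb, for another catalytic subunit, was not called, at 0.00032 in DMSO (adjusted p = 0.997) and -0.081 in JQ1 (adjusted p = 0.213). Prkar1b, for a regulatory subunit, rose with Prkaca, by 0.23 in DMSO (adjusted p = 0.00434) and 0.24 in JQ1 (adjusted p = 0.00473). Prkar2b, for another regulatory subunit, went the other way, by -0.28 in DMSO (adjusted p = 0.0178), and had -0.055 in JQ1 (adjusted p = 0.664). With ERCC scaling 0 genes of this list were higher in KO in either treatment, and 6 were lower in KO in DMSO.

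Several genes for other conductances that act near rest were higher in KO, relative to the bulk of the transcriptome. Of 16 tested potassium leak, inward rectifier, M-type, T-type calcium and sodium leak channel genes, 5 rose and 0 fell in KO in DMSO, and 7 rose and 0 fell in KO in JQ1, with the same counts without both KO replicate 3 libraries. With ERCC scaling 0 rose in either and 9 fell in DMSO. Kcnk9, for a background potassium channel, averaged 15.9 CPM in KO in DMSO and 10.6 CPM in WT in DMSO, a log2 change of 0.58 ± 0.098 (SE, adjusted p = 0.00281). Cacna1i, for a T-type calcium channel, changed by 0.47 (adjusted p = 0.00386), and Kcnj4, for an inward rectifier, by 0.36 in DMSO (adjusted p = 0.0078) and 0.46 in JQ1 (adjusted p = 0.00284). The rise of the inhibitory neuron markers given above moved in the same direction, and its part was not tested.

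JQ1 lowered 7 of these 16 genes and raised 1 in each genotype, or 10 lowered and 0 raised in WT and 1 lowered and 0 raised in KO with ERCC scaling. With TMM scaling the share called over all tested genes was 55.1% in WT and 57.1% in KO. Nalcn, for the sodium leak channel that depolarizes neurons at rest, averaged 14.5 CPM in WT in JQ1 and 53.8 CPM in WT in DMSO. Its log2 change was -1.92 ± 0.082 (SE, adjusted p = 1.28e-09) in WT and -1.87 in KO (adjusted p = 1.06e-09). The T-type calcium channel gene Cacna1i changed by -0.68 in WT (adjusted p = 1.5e-05) and by -0.80 in KO (adjusted p = 2.55e-06). In KO in JQ1, 5 of the 9 astrocyte markers fell and 0 rose, and they summed to 338 to 549 CPM, against 530 to 716 CPM in KO in DMSO. The part of the astrocyte markers in these values was not tested.

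Of 14 other genes for channels with the same cyclic nucleotide binding fold, 9 could be tested, all of them besides Cnga4 from the ether-a-go-go potassium channel family. JQ1 lowered 3 and raised 0 in WT, and lowered 5 and raised 1 in KO, or with ERCC scaling lowered 7 in WT and 0 in KO and raised 0 in either. Kcnh4 changed by -1.11 in WT (adjusted p = 1.62e-05) and Kcnh1 by -0.76 (adjusted p = 2.98e-05). In KO over WT, 1 gene was higher and 0 were lower in each treatment (0 higher in either and 4 lower in DMSO with ERCC scaling, and 2 higher in DMSO without both KO replicate 3 libraries), Kcnh3 in DMSO at 0.24 (adjusted p = 0.0199) and Kcnh1 in JQ1 at 0.46 (adjusted p = 0.0154).

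For Pex5l, the 10 genes for peroxisomal import proteins give the setting of its relatives. Between genotypes 0 were called in either treatment by edgeR or DESeq2, with 1 in DMSO and 0 in JQ1 at an unadjusted p under 0.05, and 1 was lower in KO in each treatment without both KO replicate 3 libraries. With ERCC scaling all 10 were lower in KO in DMSO. JQ1 raised 6 and lowered 0 in WT, and raised 6 and lowered 1 in KO, but with ERCC scaling raised 0 in WT and 1 in KO. Pex5, the closest relative of Pex5l, averaged 98.7 CPM in WT in JQ1 and 102.5 CPM in WT in DMSO, a log2 change of -0.055 (adjusted p = 0.262). Pex7, for the other import receptor, averaged 25.9 CPM in WT in JQ1 and 15.4 CPM in WT in DMSO, a log2 change of 0.75 ± 0.060 (SE, adjusted p = 2.31e-07), and changed by 0.81 in KO (adjusted p = 8.84e-08). Pex10, for a ubiquitin ligase of the receptor recycling machinery, changed by 0.92 in WT (adjusted p = 9.82e-07). Pex5l itself had no call in any of the 5 comparisons with TMM scaling, and was called lower in KO in DMSO with ERCC scaling, as given above.

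**Figure D5:**
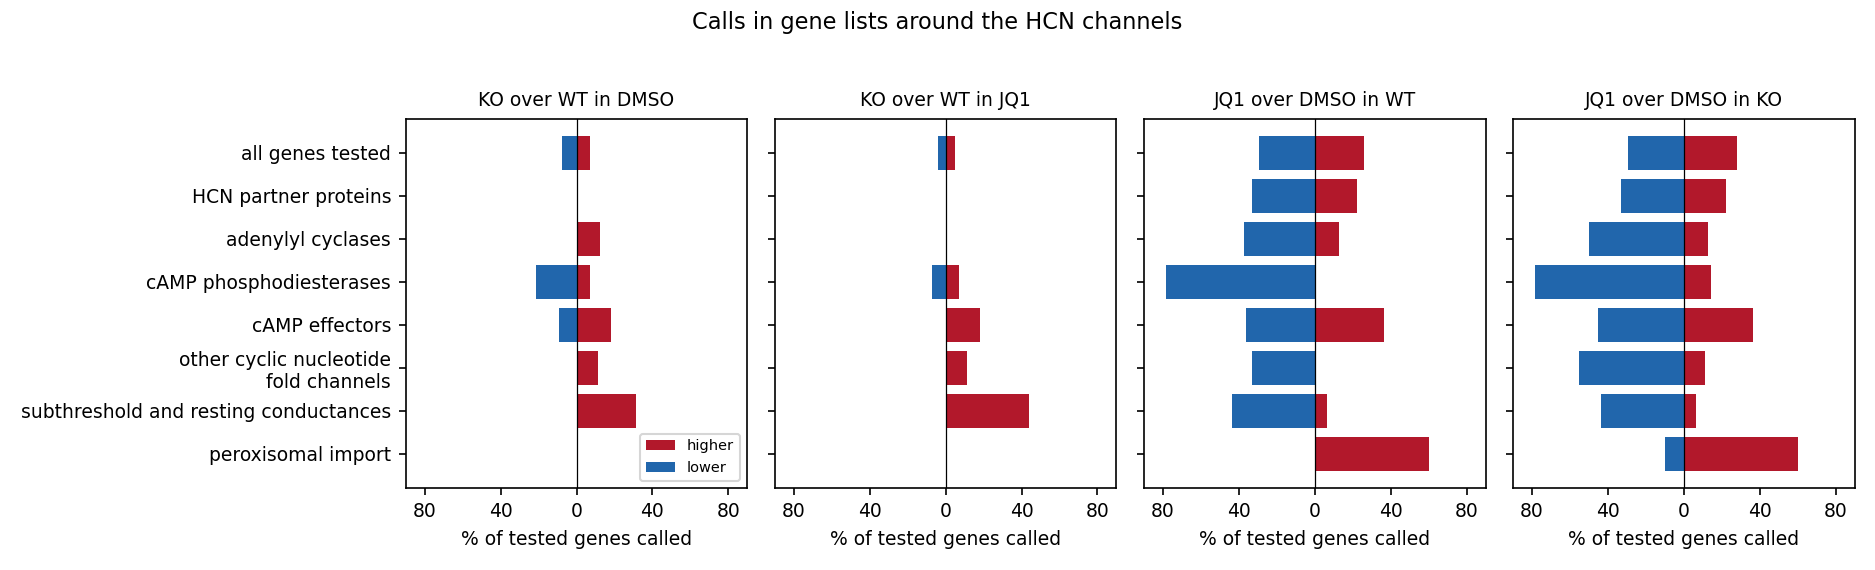
Share of tested genes called higher (to the right) or lower (to the left) in each gene list and among all tested genes, in 4 comparisons, as percent on the horizontal axes, with TMM scaling. The phosphodiesterases have 11 of 14 genes lower in JQ1 in each genotype (12 in WT and 2 in KO with ERCC scaling), and the resting conductances have 5 and 7 of 16 genes higher in KO in DMSO and in JQ1, of which 0 stay higher with ERCC scaling.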

How the data were processed

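RNA from cultured cortical neurons was sequenced as 75-base single reads from TruSeq libraries, per the labels' protocols. Per the submitters' processing notes, TopHat2 2.1.0, SAMtools 0.1.19, HTSeq 0.6.1, DESeq2 and DESeq were used with the mm9 genome. The sources used here state neither strandedness nor counting mode. Raw counts per Ensembl gene were deposited, together with counts for 92 ERCC spike-ins (86 detected), in 12 columns that all match labelled samples. The authors' deposited KO over WT table gives the mean signal of normalized counts, the log2 fold change, its standard error, the Wald score and both raw and adjusted p-value columns.

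Counts were fitted in R 4.3.3 with edgeR 4.0.16 (TMM scaling over genes, filterByExpr with a minimum count of 10, 1 mean per group over 12 libraries, 8 residual degrees of freedom, biological coefficient of variation 6.69%), and 5 comparisons were tested with quasi-likelihood F tests adjusted by Benjamini-Hochberg over 15433 genes, of 37310 listed. An adjusted p under 0.05 is a call. The edgeR fit was tested on simulated data, with changes in KO in DMSO that were larger than any of the 4 genes showed with TMM scaling. The simulation held no pairing of libraries and no shift of the spike-ins, so it does not cover changes as small as theirs. CPM uses TMM-scaled library sizes and SEs come from the quasi-likelihood statistic. Between replicates the chi-square divided by its degrees of freedom was 4.77 to 40.9, so counting errors understate the spread. Lengths and shared windows came from GENCODE M21 and promoters from RefSeq, both on GRCm38. Only names, lengths and sequences were taken from them.

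The 4 genes, the gene lists and the marker lists were chosen with earlier results of these data known. From each list, up to 3 called genes of smallest adjusted p in a comparison were eligible to be named. For each of the 4 genes, the 3 named genes of highest Pearson r with a mean of at least 3 CPM are given. Pex5 and Prkacb were named after their values were seen. Correlations of deviations from group means between libraries of the same replicate number ran from 0.212 to 0.287 for JQ1 over DMSO in KO, where every pair passed 0.1, and lower in the other comparisons (0.094 to 0.158 in WT, -0.18 to 0.011 between genotypes in DMSO and -0.016 to 0.116 in JQ1). In WT as in KO, each of the 3 JQ1 libraries correlated best with the DMSO library of its own number. No fit paired libraries within a genotype. Alternatives were DESeq2 1.42.0, RLE and ERCC scaling, no filter, a replicate block, the compared groups alone and leaving out libraries.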

Additional observations from a re-analysis of the deposited data

How the results depend on the processing

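Between genotypes in DMSO the call of Hcn4 depended on the fit: it passed with DESeq2 (log2 change 0.21, adjusted p = 0.0481), without the low-count filter (0.22, adjusted p = 0.0348), with the compared groups alone (0.22) and without both KO replicate 3 libraries (0.23, an alternative that left 3167 genes called), which made 2 called genes of the 4 in each. The replicate block gave 0.20 (adjusted p = 0.0353) and 2 called genes. It joined KO and WT libraries of the same number, whose deviations in DMSO correlated at only -0.18 to 0.011. Block and no block gave the same calls of the 4 genes in the other comparisons. ERCC scaling gave -0.72 for Hcn2, -0.61 for Hcn3, -0.60 for Hcn4 and -0.90 for Pex5l (adjusted p = 0.0126), 2 of the 4 called, and 11994 genes called, 4 of them higher. In JQ1 over DMSO it gave -0.39 for Hcn2 in WT, 0 of the 4 called, and 1520 genes called in KO. For KO over WT in JQ1 it gave 23 genes called, and for the difference of responses 0.57 for Hcn2, 0.64 for Hcn3 and 0.63 for Hcn4. The cause was not tested.

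In KO over WT in JQ1, where the change of Pex5l was near 0, its sign turned with DESeq2 (0.0054), RLE scaling (0.0032), no filter (0.0073), the block (0.0015), the compared groups alone (0.0062; 630 genes called) and without both KO replicate 3 libraries (0.033; 2469 genes called). The last also gave 0.015 for Hcn2, 0.18 for Hcn3 and 0.23 for Hcn4, 2 of the 4 called, and a difference of responses of 0.0039 for Hcn4.

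Leaving out each library in turn gave, for KO over WT in DMSO, 0.186 to 0.264 for Hcn3, 0.195 to 0.252 for Hcn4, 0.070 to 0.157 for Hcn2, -0.150 to -0.051 for Pex5l, 0 to 2 called of the 4 and 885 to 2764 genes called. In KO over WT in JQ1 it gave -0.111 to 0.026 for Hcn2, 0.114 to 0.182 for Hcn3, 0.079 to 0.234 for Hcn4, -0.081 to 0.066 for Pex5l, 0 to 2 called and 534 to 2027 genes called. In JQ1 over DMSO in WT it gave -0.053 to 0.037 for Hcn3, -0.088 to 0.0090 for Hcn4 and -0.092 to 0.029 for Pex5l. In KO it gave 0.098 to 0.182 for Hcn2, -0.116 to -0.044 for Hcn3, -0.184 to -0.024 for Hcn4, 0.00016 to 0.133 for Pex5l and 0 to 1 called. The difference of responses ran from -0.209 to -0.072 for Hcn2, -0.120 to -0.030 for Hcn3, -0.126 to 0.029 for Hcn4 and 0.026 to 0.173 for Pex5l. Each value of the 4 genes rests on 657 or more counts, and each group holds 3 libraries.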
